A study of Saccharomyces cerevisiae with 6 samples.

Results

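RNA-seq profiles of the budding yeast Saccharomyces cerevisiae were compared between a strain with the M475R allele of ASK10 and a strain from which ASK10 was deleted. The comparison rests on 3 of the 6 samples of the series, M475R replicates 1 and 2 and deletion replicate 2, and takes in all 6032 genes listed for these strains. A strain with wild-type ASK10 (WT, 2 libraries) entered the statistical fit and is given for reference. According to the labels, all strains were grown in uracil-free synthetic medium (Sc-ura) containing glucose at 20 g/l, total RNA was the starting material and mRNA was sequenced. The M475R allele, as its name states, places arginine where the protein normally has methionine, so the comparison sets a strain with an altered Ask10 protein against a strain with none. The labels give no other alleles or mating type. Transcripts of the a-cell pheromone receptor gene STE2 were present at 447 CPM (library-scaled counts, with TMM factors) in the deletion and at 400 and 452 CPM in M475R replicates 1 and 2. The 6 a-cell genes examined summed to 961, 947 and 933 CPM in the same order, although the pheromone genes MFA1 and MFA2 were at 0 in the deletion and in M475R replicate 2. The 4 alpha-cell genes summed to 66.6, 60.9 and 75.3 CPM.

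Ask10, also called Rgc2, and its paralog Rgc1 bind the plasma membrane channel Fps1 and hold it open. Through this channel yeast cells release glycerol, their main internal osmolyte. Under hyperosmotic stress the kinase Hog1 removes both regulators from the channel, which closes and retains glycerol in the cell.

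Sequencing depth was very uneven. The total of expected counts was 117680 in the deletion library, 71228 in M475R replicate 2 and 4155203 in M475R replicate 1, 35.3 times the deletion. The detection floor was set at 3 counts per library, which is worth 28.5 CPM in the deletion, 45.2 CPM in M475R replicate 2 and 0.784 CPM in the deep replicate 1. The median tested gene had 16 deletion counts, with 569 and 10 in the M475R replicates. The M475R pair differed by no more than sampling noise (chi-square 1.025 per degree of freedom over 2876 genes, p = 0.168) and was pooled as 1 sample in the ratios. Each ratio below is therefore the pooled M475R level over the deletion level, with an exact 95% interval that covers counting error only. Pooling sums the counts, so the deep replicate 1 dominates each pooled M475R level and replicate 2 adds little. The edgeR fit, in contrast, took both M475R libraries as replicates. Since 1 library stands for the deletion and the M475R pair differed no more than repeat counts of 1 sample, the adjusted p-values (edgeR's quasi-likelihood test, Benjamini-Hochberg) compare these libraries, not the strains. For named genes whose call was lost without M475R replicate 1, the adjusted p without it or the count of calls left is given.

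ASK10 (YGR097W) itself had 0 counts in the deletion against 567 and 4 in the M475R replicates. The library labelled as a deletion was thus the one without ASK10 reads, and the exact lower limit of the ratio was 4.17 (adjusted p = 1.74e-06, 0.461 without M475R replicate 1). RGC1, the paralog, stood at 133 CPM in the deletion and at 126 and 151 CPM in the M475R replicates, a ratio of 0.953 (0.562 to 1.76) that did not pass the test (adjusted p = 0.951). FPS1, the channel gene, was lower in M475R. It had 295 CPM in the deletion against 135 and 181 CPM in M475R, a ratio of 0.46 (0.32 to 0.684, adjusted p = 0.00313), and the call was lost without M475R replicate 1 (0.575). In WT the level of FPS1 was 136 CPM.

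Across the transcriptome, 119 genes were higher in M475R than in the deletion (4.09% of the 2909 tested) and 180 were lower (6.19%), 299 in all (10.3%). Of these, 81 rose and 72 fell at least 2-fold. Both M475R libraries lay on the same side of the deletion for 297 of the 299. In 213 the interval from M475R replicate 2 alone excluded a ratio of 1. The calls were made from these same libraries, so neither count is independent support for them. Genes called higher had a median of 14 deletion counts, close to that of all tested genes, and 13 of them rested on 0 to 3 counts. Genes called lower were more abundant there, with a median of 99. Scaling by total counts alone moved the split from 39.8% to 51.8% higher (156 higher, 145 lower). Without M475R replicate 1 the test called 41 genes higher and 64 lower, of which 33 and 59 were among the main calls.

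**Figure D1:**
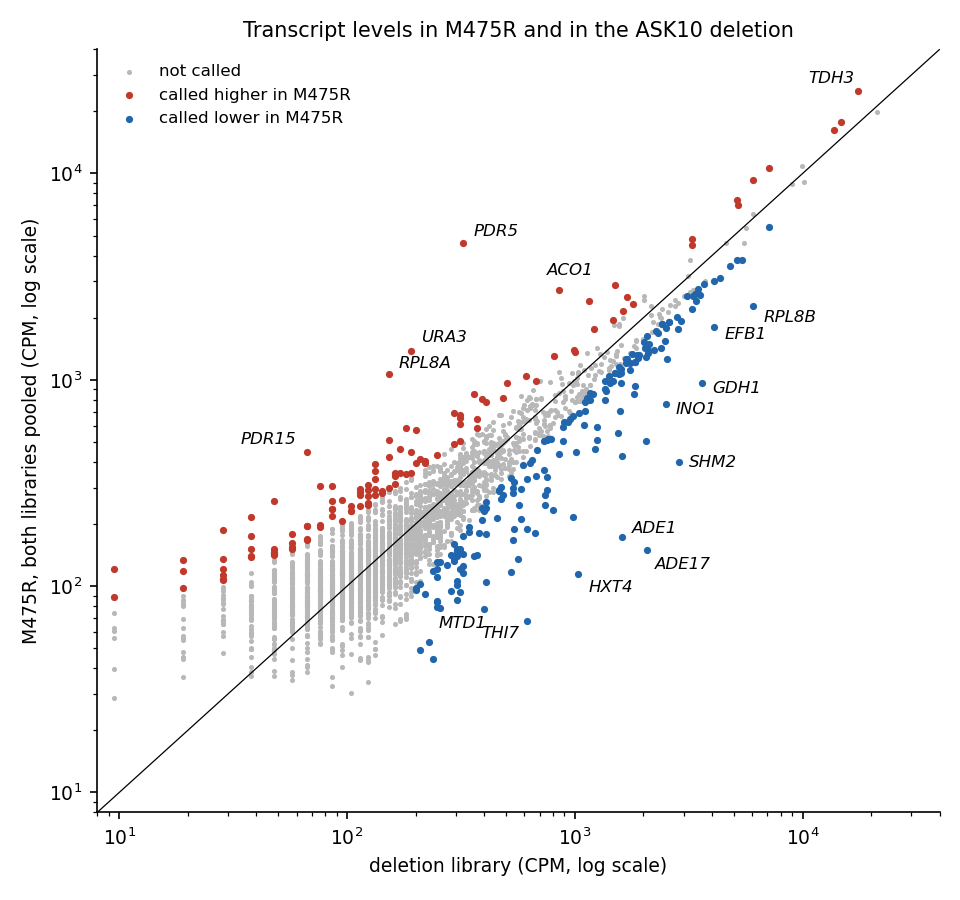
Transcript level in the deletion library (horizontal axis, CPM, log scale) against the pooled level in both M475R libraries (vertical axis, CPM, log scale) for tested genes with at least 1 deletion count. PDR5 stands far above the line of equality with 323 CPM in the deletion, and ADE17 far below it with 2074 CPM.

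FPS1 lies in a stretch of chromosome XII where most genes were higher in the deletion library. In the gene order of the reference assembly R64, the 10 outermost tested genes at the left end of chromosome XII had a median log2 fold change (M475R over deletion) of -1.31, and 6 of them were called lower. At the right end of chromosome I the median was -1.03, again with 6 of 10 genes called lower. This window was chosen after values were seen. At the other 30 chromosome ends the medians ran from -0.30 to 0.49, with at most 3 genes called lower. Set against WT, the same genes of the deletion had median log2 ratios of 0.91 at the left end of XII and 0.95 at the right end of I, whereas those of M475R had -0.19 and 0.00. These medians do not hold for every gene, and the M475R level was below WT for ADE1 (ratio of M475R to WT 0.186, 0.154 to 0.227), YLL053C (0.565, 0.38 to 0.876) and RPL8B (0.659, 0.601 to 0.723). Among the genes treated here, YLL053C, RPL8B and FPS1 are in the left end of XII, with SDH2, TPO1 and HSP104 following among its 21 outermost tested genes, and ADE1 and EFB1 are in the right end of I. For these genes the effect of the ASK10 genotype and that of the chromosome end cannot be told apart.

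**Figure D2:**
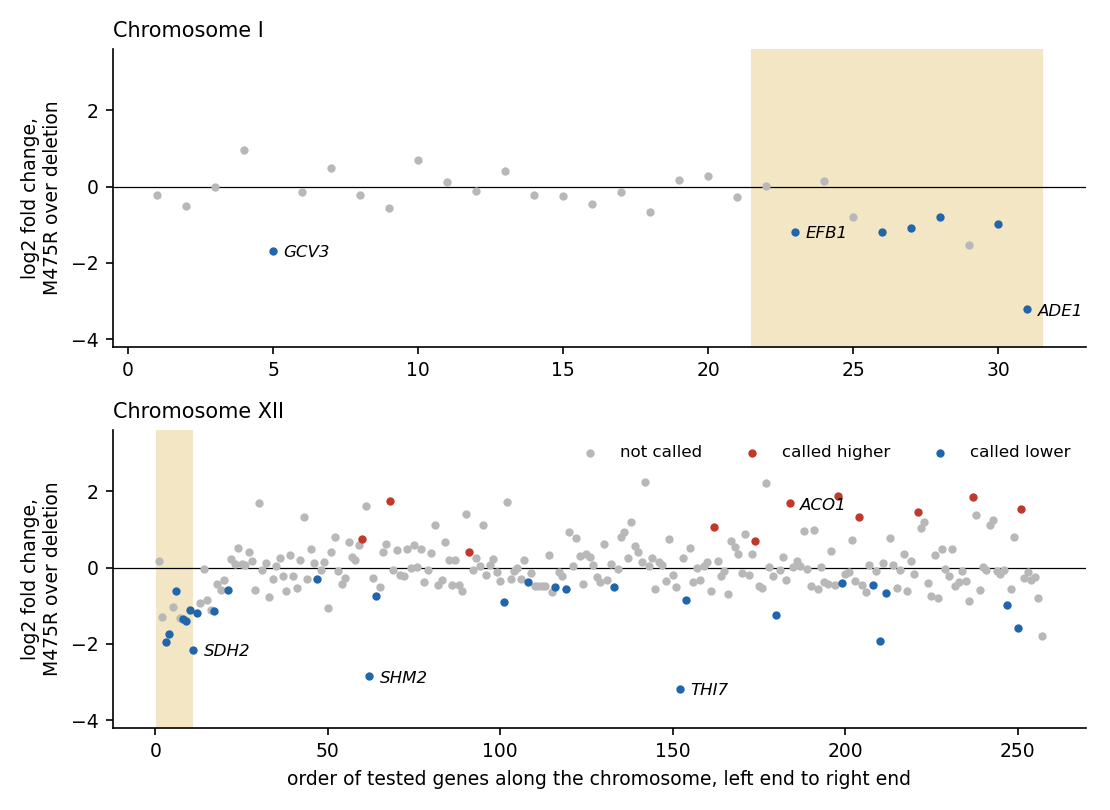
Log2 fold change of M475R over the deletion (vertical axis) for each tested gene in chromosome order (horizontal axis) on chromosomes I and XII, coloured by call. Shading marks the 10 outermost tested genes at the right end of I and the left end of XII, whose medians were -1.03 and -1.31.

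The strongest rise belonged to the drug efflux genes. The transcription factors Pdr1 and Pdr3 bind the promoters of ABC transporter genes and raise pleiotropic drug resistance. PDR5, the major efflux pump of the plasma membrane, had 34 counts in the deletion and 17685 and 302 in the M475R replicates, that is 323, 4621 and 4546 CPM. Both M475R libraries were alike and far above the deletion, with a ratio of 14.3 (10.2 to 20.6, adjusted p = 7.53e-103), and WT stood beside the deletion at 307 CPM. PDR15, a close relative of PDR5, rose from 66.6 CPM to 447 and 406 CPM (ratio 6.7, 3.25 to 16.7, adjusted p = 1.25e-10). PDR15 passed the low-count filter only through its M475R counts. PDR3, which encodes one of the regulators and is itself a target of the pathway, had 38.1, 175 and 211 CPM (ratio 4.62, 1.8 to 17, adjusted p = 0.00112), resting on 4 deletion counts. SNQ2, another ABC pump, had a ratio of 2.69 (1.69 to 4.54), and IPT1, a sphingolipid synthesis gene under the same control, had 2.84 (1.3 to 7.77). In WT, PDR15, PDR3 and SNQ2 had 57.2, 50 and 157 CPM. IPT1 had 157 CPM in WT, beside its pooled M475R level of 162 CPM, against 57.1 CPM (6 counts) in the deletion. The calls of PDR3, SNQ2 and IPT1 were lost without M475R replicate 1 (adjusted p = 0.215, 0.389 and 0.594). In all, 5 of the 9 tested genes of this list were higher and 0 lower, with a median log2 fold change of 1.42 against 0.01 over all tested genes. Without M475R replicate 1, 3 of 7 were higher and 1 was lower, the polyamine exporter gene TPO1 (adjusted p = 0.0212). Of the main calls of this list, those of PDR5 and PDR15 held in that fit, and the remaining higher gene was not called with both libraries. With both libraries TPO1 had 371 CPM in the deletion and 250 and 105 CPM in M475R, a difference that did not pass the test (0.126).

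Multidrug transporters outside that regulon did not share the rise, with ratios from 0.45 to 1.15 and a median log2 fold change of -0.64. Of 8 tested, 0 were higher and 2 were lower, against 4.09% and 6.19% of all tested genes. PDR12, the weak-acid exporter controlled by War1, had 752 CPM in the deletion and 339 and 286 CPM in M475R (ratio 0.45, 0.359 to 0.573, adjusted p = 1.29e-07). TPO4, a polyamine exporter gene, had a ratio of 0.498 (0.345 to 0.745, adjusted p = 0.011), a call lost without M475R replicate 1 (0.321).

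The steepest falls were in purine synthesis. The de novo pathway builds inosine monophosphate (IMP) in successive steps, most of them encoded by ADE genes, and Bas1 with Pho2 (Bas2) activates these genes when adenine is scarce. Of its 10 tested genes, 9 were lower in M475R and 0 higher, with a median log2 fold change of -1.90. ADE17, for the bifunctional enzyme of the last steps, had 218 counts in the deletion and 573 and 11 in M475R, that is 2074, 150 and 166 CPM. Both M475R libraries were far below the deletion, with a ratio of 0.0723 (0.0618 to 0.0849, adjusted p = 6.53e-129), and WT had 2044 CPM. ADE16, which encodes the isozyme of the same step, stood at 381 CPM in the deletion and at 406 and 587 CPM in M475R, and did not pass the test (ratio 1.07, 0.785 to 1.51). ADE4, the first enzyme of the pathway, fell from 980 CPM to 218 and 105 CPM, a fitted log2 fold change of -2.18 that was -3.16 without M475R replicate 1. For ADE57 (the fused ADE5,7 gene) the levels were 2045, 504 and 467 CPM, and for ADE6 they were 1541, 552 and 557 CPM. ADE13, which acts both before IMP and in the branch to AMP, and ADE12, of that branch, had ratios of 0.263 (0.225 to 0.31) and 0.272 (0.213 to 0.353). ADE2 had a ratio of 0.305 (0.236 to 0.399). ADE1 fell from 1608 CPM to 172 and 226 CPM. It lies on the right end of chromosome I, yet its M475R level was also far below the 929 CPM of WT. ADE8 had 209, 101 and 151 CPM, and its call (adjusted p = 0.0362) was lost without M475R replicate 1 (0.794).

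Genes that supply one-carbon units for purine synthesis fell as well, 5 of 10 tested, with 0 higher. SHM2, the cytosolic serine hydroxymethyltransferase gene, had 2854 CPM in the deletion and 398 and 346 CPM in M475R (ratio 0.139, 0.123 to 0.158, adjusted p = 1.59e-94), while WT had 3058 CPM. The mitochondrial isozyme gene SHM1 did not pass the test, with 266 CPM in the deletion and 316 and 135 CPM in M475R, on either side of it. MTD1, a folate dehydrogenase gene, had 42 counts in the deletion and 299 and 1 in M475R, that is 400, 78.1 and 15.1 CPM. Its fitted log2 fold change was -2.37, and -4.55 without M475R replicate 1. All 3 genes tested for the subunits particular to the glycine cleavage complex fell. GCV1 fell to a ratio of 0.322, GCV2 to 0.241 and GCV3 to 0.313 of the deletion. The fitted log2 fold change of GCV1 went from -1.64 to -2.37 without M475R replicate 1, where M475R rested on 3 counts, at the floor. ADE3, the trifunctional folate enzyme, had 1123 CPM in the deletion and 904 and 1084 CPM in M475R, and did not pass the test (adjusted p = 0.309).

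**Figure D3:**
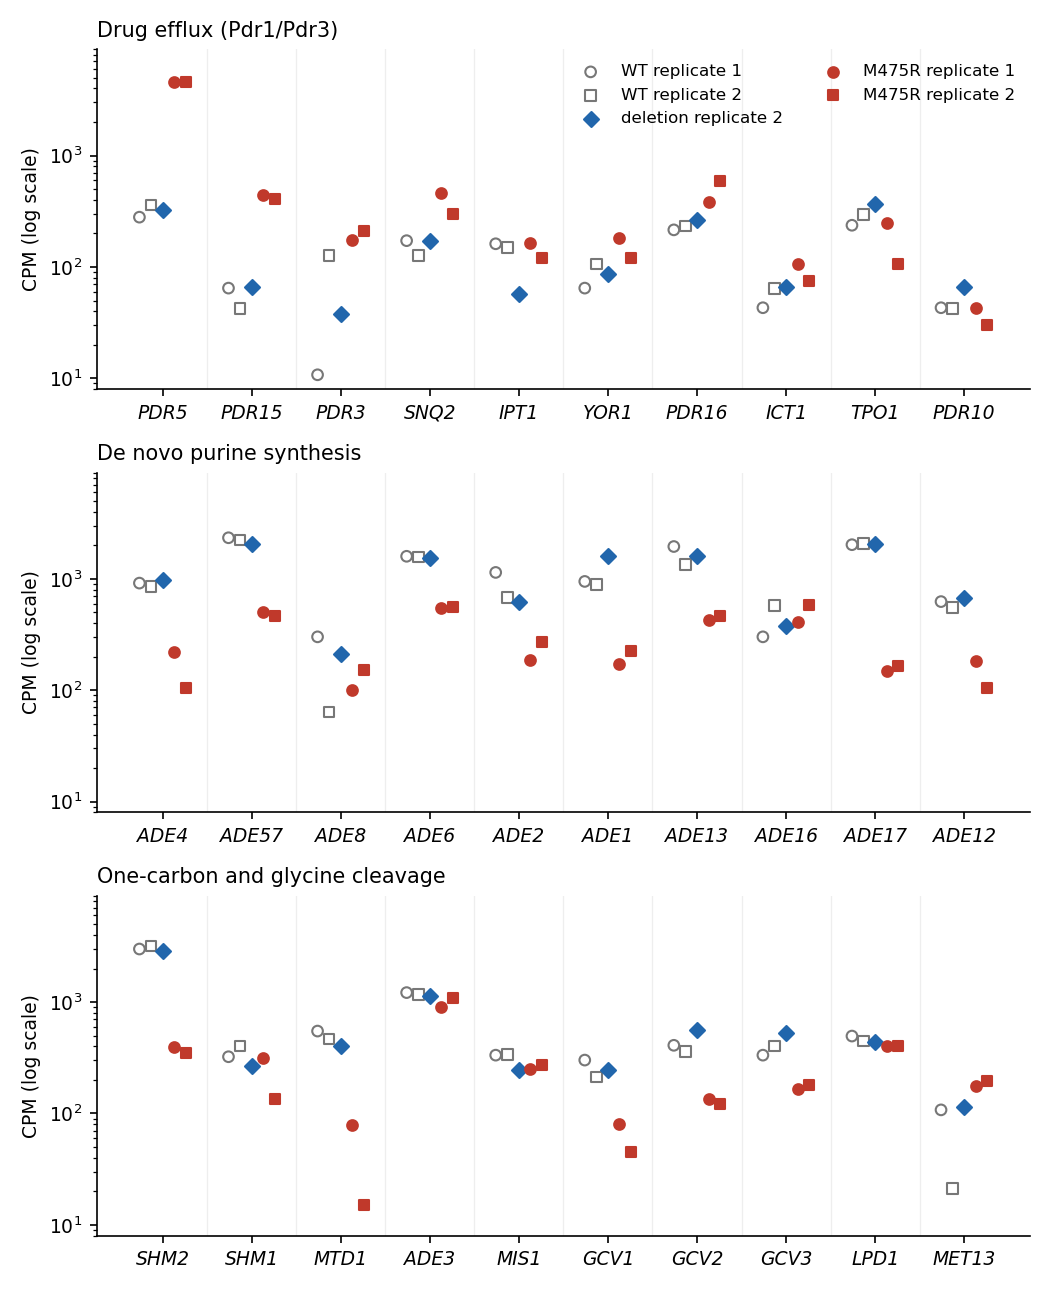
Transcript level (CPM, log scale) of drug efflux, purine and one-carbon genes in each of the 5 libraries, with open symbols for WT, diamonds for the deletion and filled red symbols for M475R. In PDR5 the deletion lies beside WT and both M475R libraries far above them, and in ADE17 and SHM2 both M475R libraries lie far below.

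The branch from IMP to GMP and the salvage genes showed smaller falls, in 5 of 10 tested genes. HPT1, the hypoxanthine-guanine phosphoribosyltransferase gene, had 742 CPM in the deletion and 247 and 256 CPM in M475R (ratio 0.333, 0.264 to 0.425, adjusted p = 2.22e-13). FCY2, the purine-cytosine permease gene, had a ratio of 0.532 (0.406 to 0.709). GUA1, GMP synthase, and IMD3 and IMD4, IMP dehydrogenases, had ratios of 0.638, 0.508 and 0.638, but their calls were lost without M475R replicate 1 (adjusted p = 0.143, 0.146 and 0.646), and that of IMD4 also without replicate 2 (0.0673). IMD3 and IMD4 are close copies, among which reads can be shared.

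Histidine synthesis, which shares an intermediate with the purine pathway, had 3 of 6 tested genes lower. HIS1, the first step, fell from 742 CPM to 279 and 241 CPM (ratio 0.375, 0.297 to 0.478). HIS4 fell from 1008 CPM to 446 and 422 CPM (0.442, 0.363 to 0.543). HIS5 had a ratio of 0.496 (0.348 to 0.732), a call lost without M475R replicate 1 (adjusted p = 0.107).

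Nitrogen assimilation was lower at its main entry point. GDH1, the NADPH-dependent glutamate dehydrogenase that fixes ammonia, had 380 counts in the deletion and 3697 and 67 in M475R, that is 3615, 966 and 1009 CPM. The M475R libraries were alike, and the ratio was 0.267 (0.241 to 0.298, adjusted p = 3.43e-58), with WT at 3201 CPM. ASN1, asparagine synthetase, had a ratio of 0.601 (0.515 to 0.705). GLN1, glutamine synthetase, and the ammonium permease gene MEP3 had ratios of 0.71 and 0.305, with calls lost without M475R replicate 1 (adjusted p = 0.398 and 0.094). MEP3 had 257 CPM in the deletion, 78.4 and 75.3 CPM in M475R and 100 CPM in WT. Its ratio of deletion to WT was 2.57 (1.3 to 5.3), and that of M475R to WT was 0.783 (0.46 to 1.45). GDH1, ASN1, GLN1 and MEP3 were the 4 of 12 tested genes called lower, with 0 higher. In branched-chain amino acid synthesis 4 of 10 were lower and 1 higher. BAT1, the mitochondrial transaminase gene, fell to a ratio of 0.377 (0.315 to 0.454) and LEU1, isopropylmalate isomerase, to 0.449 (0.384 to 0.528), whereas ILV1, threonine deaminase, had 219 CPM in the deletion and 405 and 437 CPM in M475R (adjusted p = 0.019, 0.145 without M475R replicate 1). LEU9, an isopropylmalate synthase gene, and ILV5, acetohydroxyacid reductoisomerase, had ratios of 0.474 and 0.726, with calls lost without M475R replicate 1 (adjusted p = 0.0632 and 0.258), so that 2 lower and 0 higher were left. Of all tested genes, edgeR called 10.3%. In the arginine, lysine, aromatic and sulfur amino acid pathways it called 1 of 7, 1 of 7, 0 of 14 and 1 of 10 tested genes. They were ARG4, lower, with a ratio of 0.636 (adjusted p = 0.186 without M475R replicate 1 and 0.0615 without replicate 2), LYS12, higher, with 2.07 (0.165 without replicate 1), and the methionine synthase gene MET6, lower, with 0.601 (0.53 to 0.685, adjusted p = 5.53e-08).

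Genes of the mitochondrion were split between its expression machinery and its respiratory chain. Mitochondrial ribosomal proteins are encoded in the nucleus and translate the few respiratory subunits encoded by mitochondrial DNA. Of 63 tested, 20 were higher, 0 were lower, and the median log2 fold change was 0.95. All 63 were fitted above 0, against 1479 of the 2909 genes tested. In 59 of the 63 both M475R libraries lay above the deletion. Every gene was set against the same 1 deletion library, so the genes are not replicates. MRPS18 had 124 CPM in the deletion and 306 and 376 CPM in M475R (ratio 2.49, 1.45 to 4.68, adjusted p = 0.00258). MRPL31 had 28.5 CPM, 3 counts, in the deletion, 188 and 166 CPM in M475R (ratio 6.59, 2.25 to 32) and 107 CPM in WT. MRP1 had 85.6, 309 and 196 CPM. The calls of MRPL31 and MRP1 were lost without M475R replicate 1 (adjusted p = 0.168 and 0.372). So were most calls of this list, since without that library 3 of 56 tested genes were higher. RSM7 shows how far replicate 1 can decide a value. It had 76.1 CPM in the deletion, 308 CPM in M475R replicate 1 and 90.3 CPM in replicate 2, and its fitted log2 fold change went from 2.00 to 0.28 without replicate 1. MEF1, the mitochondrial elongation factor gene, rose from 152 CPM to 510 and 587 CPM (ratio 3.36, 2.06 to 5.89, adjusted p = 3.22e-07), a call that held without M475R replicate 1 (8.14e-05).

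Chaperones and proteases of the mitochondrial matrix and inner membrane moved the same way, with 7 of 15 tested genes higher, 0 lower and a median log2 fold change of 0.92. HSP60, the chaperonin that folds imported proteins, had 1151 CPM in the deletion and 2410 and 2273 CPM in M475R (ratio 2.09, 1.75 to 2.52, adjusted p = 4.62e-12). Its cochaperone gene HSP10 rose from 181 CPM to 585 and 527 CPM (ratio 3.23, 2.06 to 5.38). SSC1, the matrix Hsp70 that drives import, rose from 1494 CPM to 2895 and 2529 CPM (ratio 1.93, 1.65 to 2.28). The rises of HSP78, a matrix disaggregase, PIM1, the Lon protease, PHB1, prohibitin, and MDJ1, a matrix Hsp40, had ratios of 2.92, 1.91, 2.18 and 1.92 and were lost without M475R replicate 1 (adjusted p = 0.367, 0.107, 0.273 and 0.205). Of 20 import genes, 3 were higher and 0 lower, TIM10, OXA1 and MAS2, with ratios of 2.75, 2.21 and 2.04, and 0 were called without M475R replicate 1.

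In the tricarboxylic acid cycle 3 of 16 tested genes were higher and 1 lower. ACO1, aconitase, had 90 counts in the deletion and 10449 and 190 in M475R, that is 856, 2730 and 2860 CPM. Both M475R libraries lay well above the deletion (ratio 3.19, 2.59 to 3.97, adjusted p = 1.5e-27), and WT had 950 CPM. IDH1, for a subunit of NAD-dependent isocitrate dehydrogenase, rose from 314 CPM to 654 and 708 CPM (ratio 2.09, 1.48 to 3.04). Its partner IDH2 had 504 CPM in the deletion, 974 CPM in M475R replicate 1 and 587 CPM in replicate 2, and lost its call without replicate 1 (adjusted p = 0.774). MDH1, the mitochondrial malate dehydrogenase gene, had a ratio of 0.54 (0.383 to 0.786, adjusted p = 0.0179, 0.683 without replicate 1). The level of MDH1 was 136 CPM in WT, 323 CPM in the deletion and 174 and 226 CPM in M475R, so M475R did not lie below WT. ACO1, IDH1 and IDH2 are among the genes raised by the retrograde signal from mitochondrion to nucleus in cells that respire poorly. In the list of that pathway 4 of 9 tested genes were higher and 0 lower, the other being CIT2, peroxisomal citrate synthase, with 295, 490 and 316 CPM (ratio 1.65, 1.16 to 2.44), whose call was lost without M475R replicate 1 (adjusted p = 0.926).

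Nuclear genes for the respiratory complexes went the other way. Of the cytochrome bc1 complex and cytochrome c, 6 of 9 tested genes were lower and 0 higher, with a median log2 fold change of -0.90. QCR2, a core subunit of bc1, fell from 799 CPM to 233 and 241 CPM (ratio 0.292, 0.233 to 0.369, adjusted p = 1.05e-17). QCR8 fell from 247 CPM to 85.4 and 30.1 CPM (ratio 0.342). Its fitted log2 fold change was -1.56, and -2.93 without M475R replicate 1, where M475R rested on 2 counts, below the floor. QCR7, COR1, CYT1 and QCR6 had ratios of 0.38, 0.534, 0.586 and 0.54, with calls lost without M475R replicate 1 (adjusted p = 0.0778, 0.372, 0.24 and 0.476). CYC1, cytochrome c, had 495 CPM in the deletion and 508 and 406 CPM in M475R and did not pass the test. COX4, of cytochrome c oxidase, had 3 counts in M475R replicate 2, at the floor. All 3 calls among 5 tested cytochrome c oxidase genes were lower. They were COX4, with 247 CPM in the deletion and 84.4 and 45.2 CPM in M475R (ratio 0.339, log2 fold change -1.57, and -2.37 without M475R replicate 1), COX5A (0.388) and COX6 (0.478), and the last 2 were lost without M475R replicate 1 (adjusted p = 0.264 and 0.178).

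ATP synthase had 6 of 11 tested genes lower, 0 higher and a median log2 fold change of -1.25. In all 11 both M475R libraries lay below the deletion, which is the same 1 library for every gene, so the genes are not replicates. ATP2, the beta subunit, had 1826 CPM in the deletion and 857 and 783 CPM in M475R (ratio 0.469, 0.405 to 0.545, adjusted p = 5.35e-13). ATP1, the alpha subunit, had 1246, 511 and 662 CPM (ratio 0.412, 0.345 to 0.496). ATP5 fell to a ratio of 0.348 and ATP7 to 0.388. The calls of ATP14 (ratio 0.419) and ATP16 (0.481) were lost without M475R replicate 1 (adjusted p = 0.449 and 0.423) and without WT replicate 1 (0.0532 and 0.116), and that of ATP16 also without M475R replicate 2 (0.062) or WT replicate 2 (0.0713). Succinate dehydrogenase, which belongs to the cycle and to the chain alike, had 2 of 5 tested genes lower. SDH2, the iron-sulfur subunit gene, had 523 CPM in the deletion and 116 and 211 CPM in M475R (ratio 0.224, 0.169 to 0.302). Its fitted log2 fold change was -2.15, and -1.26 without M475R replicate 1. It lies near the left end of chromosome XII, and WT had 164 CPM. SDH1 had a ratio of 0.487, with the call lost without M475R replicate 1 (adjusted p = 0.782).

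**Figure D4:**
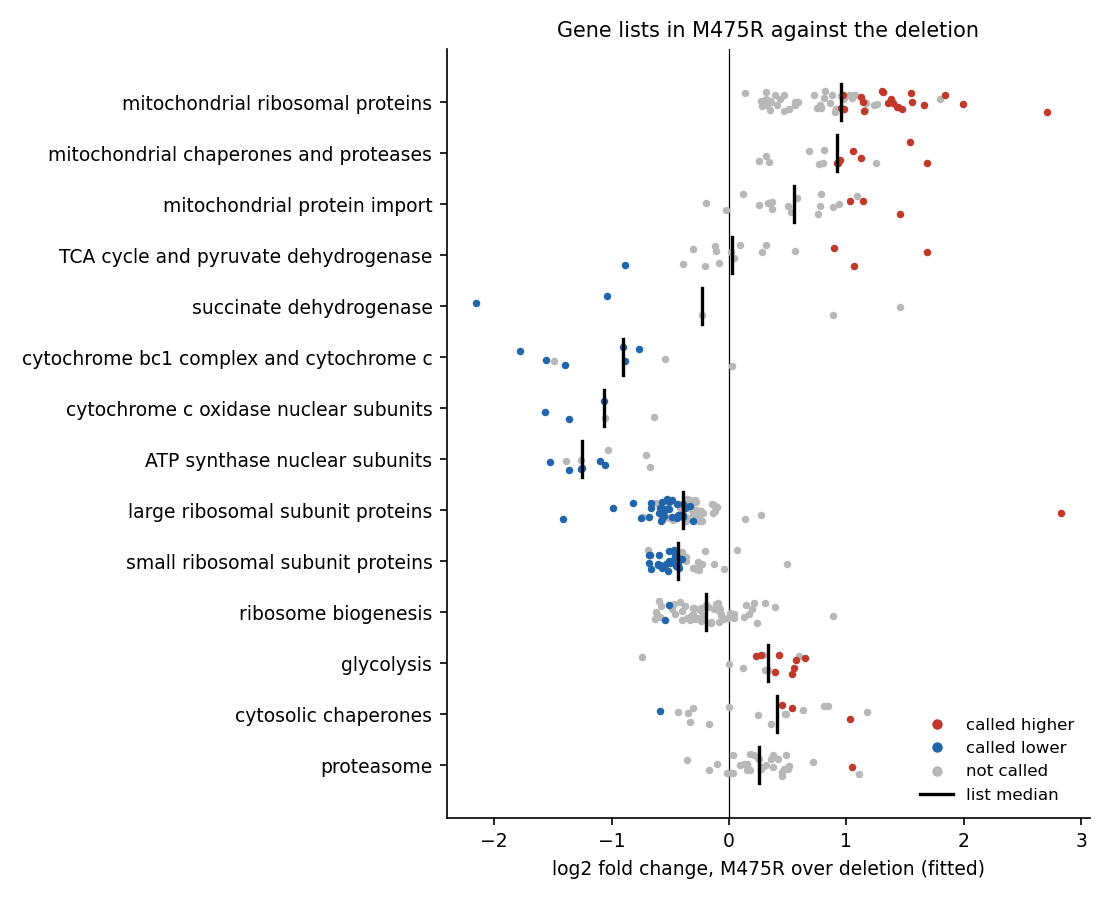
Fitted log2 fold change of M475R over the deletion (horizontal axis) for each tested gene of 14 gene lists, coloured by call, with a bar at the list median. Medians are 0.95 for mitochondrial ribosomal proteins and 0.92 for mitochondrial chaperones and proteases, against -0.90 for the bc1 complex and -1.25 for ATP synthase.

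Cytosolic ribosomal protein genes were slightly lower in M475R. Of 75 tested genes of the large subunit 34 were lower and 1 higher (median log2 fold change -0.39), and of 53 genes of the small subunit 27 were lower and 0 higher (median -0.44). With scaling by total counts 25 and 18 were lower, and without M475R replicate 1, 6 and 5. Many of these genes exist as near-identical pairs, between which the authors' counting could divide reads.

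RPL8A and RPL8B, which encode the same protein of the large subunit, moved in opposite directions. RPL8A had 16 counts in the deletion and 4057 and 83 in M475R, that is 152, 1060 and 1250 CPM (ratio 6.99, 4.3 to 12.2, adjusted p = 1.26e-22). RPL8B, on the left end of chromosome XII, had 6079 CPM in the deletion and 2284 and 2273 CPM in M475R (ratio 0.376, 0.347 to 0.408, adjusted p = 8.7e-52). In WT their levels were 1401 and 3466 CPM. For RPL8A the deletion was far below WT (ratio of deletion to WT 0.109) and M475R moderately below it (ratio of M475R to WT 0.759, 0.658 to 0.881). For RPL8B the deletion was above WT (1.75, 1.56 to 1.98) and M475R below it (0.659). URA3, whose product makes uridine monophosphate and which serves as a plasmid and integration marker on medium without uracil, differed in the same fashion. It had 20 counts in the deletion and 5269 and 112 in M475R, that is 190, 1377 and 1686 CPM (ratio 7.26, 4.7 to 11.9, adjusted p = 2.75e-29), with WT at 1343 CPM. The labels do not say how URA3 is carried in each strain, and its part in other differences was not tested.

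Of 57 tested ribosome biogenesis genes 2 were lower and 0 higher (median log2 fold change -0.19). They were CBF5, the pseudouridine synthase gene of box H/ACA particles, and NOP56, of box C/D particles, with ratios of 0.68 and 0.702. Both calls were lost without M475R replicate 1 (adjusted p = 0.541 and 0.476) and without M475R replicate 2 (0.052 and 0.0977), and without replicate 1 the list had 0 lower and 1 higher. In translation elongation and initiation 3 of 25 were lower, of which EFB1, an elongation factor 1B subunit gene on the right end of chromosome I, fell from 4090 CPM to 1810 and 1641 CPM (ratio 0.442, 0.401 to 0.488) and had 2065 CPM in WT. The others were STM1, a ribosome-associated protein gene (ratio 0.768, adjusted p = 0.472 without M475R replicate 1 and 0.105 without replicate 2), and GCN4, the activator of amino acid synthesis genes (0.693, 0.236 without replicate 1). Of 20 aminoacyl-tRNA synthetase genes, edgeR called 0 (smallest adjusted p = 0.309).

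Glycolytic genes were modestly higher. Of 15 tested, 8 rose and 0 fell, with a median log2 fold change of 0.33. TDH3, the main glyceraldehyde-3-phosphate dehydrogenase gene, had 17475 CPM in the deletion and 25061 and 25893 CPM in M475R (ratio 1.43, 1.37 to 1.5, adjusted p = 9.33e-19). GPM1, phosphoglycerate mutase, rose from 6031 CPM to 9263 and 9876 CPM (ratio 1.54, 1.42 to 1.67), and PGK1, phosphoglycerate kinase, from 7116 CPM to 10606 and 10508 CPM (1.49, 1.39 to 1.6). Without M475R replicate 1 there were 4 calls, all higher. TDH3 shares long stretches with TDH2, so reads can be divided between them. CDC19, pyruvate kinase, had a ratio of 1.09 (1.03 to 1.16) and did not pass the test (adjusted p = 0.309). At the level of sugar uptake, HXT4, a high-affinity hexose transporter gene, had 109 counts in the deletion and 442 and 6 in M475R, that is 1037, 115 and 90.3 CPM (ratio 0.111, 0.0898 to 0.138, adjusted p = 3.44e-57), and 800 CPM in WT. HXT1, the low-affinity transporter gene induced by high glucose, rose from 314 CPM to 612 and 723 CPM (ratio 1.95, 1.39 to 2.85). HXT3, also of low affinity, did not pass the test (ratio 1.19, 0.992 to 1.44).

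Glycerol synthesis genes bear on the channel that Ask10 opens. Of 6 tested genes of glycerol metabolism 3 were higher and 0 lower. GPP1 and GPP2 encode the phosphatases that release glycerol, and had ratios of 1.45 (1.22 to 1.74, adjusted p = 0.00271) and 2.58 (1.47 to 5, adjusted p = 0.00236). GPP2, the osmotically induced isoform, had 114 CPM in the deletion and 294 and 271 CPM in M475R. DAK1, dihydroxyacetone kinase, had a ratio of 2.2 (1.28 to 4.14). All 3 calls were lost without M475R replicate 1 (adjusted p = 0.0648 for GPP1, 0.189 for GPP2 and 0.0935 for DAK1). GPD1, the glycerol-3-phosphate dehydrogenase gene induced by Hog1, had 323 CPM in the deletion and 492 and 512 CPM in M475R and did not pass the test (ratio 1.52, 1.09 to 2.21, adjusted p = 0.0885). General stress genes under Msn2 and Msn4 gave 1 call in 13, the aldose reductase gene GRE3, higher with a ratio of 2.14 (adjusted p = 0.0313, 0.215 without M475R replicate 1), and trehalose genes 0 in 5 by edgeR (smallest adjusted p = 0.127).

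Chaperones of the cytosol and of the endoplasmic reticulum (ER) gave a few calls in each direction. Of all tested genes, 4.09% were called higher and 6.19% lower. The shares were 16.7% higher and 5.56% lower for cytosolic chaperones, and 3.03% higher for the proteasome. Of cytosolic chaperones 3 of 18 tested genes were higher and 1 lower, and 0 were called without M475R replicate 1. STI1, the cochaperone that links Hsp70 and Hsp90, had 390 CPM in the deletion and 805 and 692 CPM in M475R (ratio 2.06, 1.51 to 2.88, adjusted p = 8.22e-05, 0.0935 without replicate 1). HSP82, the inducible Hsp90 gene, had 1693, 2530 and 2017 CPM (ratio 1.49, 1.28 to 1.74, adjusted p = 0.00049, 0.553 without replicate 1). SSE1, an Hsp110 gene, had 989, 1405 and 979 CPM, with replicate 2 beside the deletion (adjusted p = 0.0424, 0.972 without replicate 1). HSP104, the disaggregase gene near the left end of chromosome XII, was lower at 885, 587 and 587 CPM (ratio 0.664, 0.54 to 0.826, adjusted p = 0.0102, 0.323 without replicate 1), against 307 CPM in WT. For SSE1, WT had 1322 CPM, near its pooled M475R level of 1398 CPM. In the ER, KAR2, the Hsp70 of the lumen, fell from 1246 CPM to 590 and 437 CPM (ratio 0.471, 0.395 to 0.567, adjusted p = 4.36e-10). KAR2 and ERO1, a thiol oxidase gene, were the 2 of 8 tested ER genes called lower, and the call of ERO1 (ratio 0.531) was lost without M475R replicate 1 (adjusted p = 0.516), M475R replicate 2 (0.0558) or WT replicate 1 (0.0641). Of the 8 TRiC chaperonin subunits edgeR called 0 (smallest adjusted p = 0.0511), and of 33 proteasome genes 1 was higher, PRE3 (ratio 2.07, adjusted p = 0.0268, 0.53 without replicate 1).

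Among vitamin, metal and lipid genes, INO1 had the smallest adjusted p and THI7 the lowest ratio. INO1, for the inositol-3-phosphate synthase that starts phosphatidylinositol synthesis, had 263 counts in the deletion and 2931 and 51 in M475R, that is 2502, 766 and 768 CPM (ratio 0.306, 0.27 to 0.349, adjusted p = 4.26e-36). The M475R libraries also lay below WT, which had 1536 CPM. OPI3, which completes phosphatidylcholine, had a ratio of 0.702 (adjusted p = 0.00403, 0.594 without M475R replicate 1). Of thiamine genes 2 of 7 tested were lower, the thiamine transporter gene THI7, with 618 CPM in the deletion, 67.4 and 90.3 CPM in M475R and 286 CPM in WT (ratio 0.11, 0.0833 to 0.146), and THI20 (0.235, 0.154 to 0.375, adjusted p = 0.0107, 0.0512 without replicate 1). Of 14 targets of the zinc regulator Zap1, 5 were lower and 0 higher. ADH4, an alcohol dehydrogenase gene induced by low zinc, had 2530, 1251 and 1596 CPM (ratio 0.497, 0.439 to 0.564, adjusted p = 1.5e-13, 0.0512 without replicate 1). The others were the zinc transporter genes ZRT1 and ZRT2 with ratios of 0.792 and 0.537, ZPS1 with 0.641 and VEL1 with 0.234, all lost without replicate 1 (adjusted p = 0.758, 0.258, 0.769 and 0.491) and ZRT1 also without M475R replicate 2 (0.117). Iron uptake gave 2 higher of 7, FET3 and FTR1, which form the high-affinity uptake complex, with ratios of 1.8 and 1.57 (adjusted p = 0.332 and 0.751 without replicate 1). Both lay at or above 593 CPM in WT. The ergosterol gene ERG3 had 715 CPM in WT, 485 CPM in the deletion and a pooled 815 CPM in M475R. Ergosterol synthesis gave 3 higher of 22, ERG3, ERG4 and ERG1, with ratios of 1.68, 1.98 and 1.46 (adjusted p = 0.204, 0.685 and 0.238 without replicate 1).

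At the cell surface, BGL2, a glucanosyltransferase gene of the cell wall, rose from 609 CPM to 1044 and 1129 CPM (ratio 1.72, 1.34 to 2.23, adjusted p = 0.000635). CWP1, a wall mannoprotein gene, had 1 count in the deletion against 460 and 9 in M475R (ratio 12.7, 2.26 to 501), and was not tested without M475R replicate 1. Its neighbour CWP2 was lower, at 1370, 883 and 1084 CPM (ratio 0.647, 0.548 to 0.77, adjusted p = 0.00153, 0.628 without replicate 1). Histone genes gave 0 calls in 10 by edgeR (smallest adjusted p = 0.112). In the lists without a call, an unadjusted p under 0.05 was reached by 1 aromatic amino acid gene, 0 aminoacyl-tRNA synthetase genes, 1 trehalose gene, 2 TRiC genes and 2 histone genes, and DESeq2 called 0 in each.

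By size, the 15 largest rises and 15 largest falls were mostly genes already described. Further rises were LAF1, with 38.1 CPM in the deletion and 215 and 256 CPM in M475R (ratio 5.68, 2.21 to 20.9), and FMP10 and VRP1, the latter an actin-organising protein gene, with ratios of 4 and 3.69 (adjusted p = 0.388 and 0.136 without M475R replicate 1). MRPL24, of the mitochondrial ribosome, had a ratio of 3.18 (1.35 to 9.82, adjusted p = 0.0201, 0.215 without it). YGR109W-B, a Ty3 retrotransposon reading frame, had 0 counts in the deletion and 124 and 166 CPM in M475R, so that the lower limit of its ratio was 3.54. It was at 0 in WT as well, was not tested without M475R replicate 1, and is a repeated element for which the placing of reads is uncertain. LAF1, FMP10, MRPL24 and YGR109W-B passed the low-count filter only through their M475R counts. Of the falls, YOR387C had 238, 44.2 and 60.2 CPM, VEL1 209, 48.1 and 105 CPM, and YLL053C, on the left end of chromosome XII, 409, 106 and 75.3 CPM. The first 2 were lost without M475R replicate 1 (adjusted p = 0.0778 and 0.491), and VEL1 also without WT replicate 1 (0.113) or WT replicate 2 (0.0542). YOR387C and VEL1 are close copies, among which reads can be shared. In 11 of the 15 largest rises and 9 of the 15 largest falls, the interval of the ratio of deletion to WT included 1. That does not show equal levels, since several of the rises had few deletion counts and wide intervals. For VRP1, with 4 deletion counts, the ratio of deletion to WT was 0.333 (0.081 to 1.03). YGR109W-B, at 0 in both, had no such ratio.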

How the data were processed

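Of 6 samples in the series, 5 libraries had columns in the files used, and deletion replicate 1 was not analysed here. The authors' 7 full tables list, per the file headers, each gene's expression in a library pair as an expected count and as an FPKM, with 0.001 as the smallest FPKM. Alignment tools listed in the submitters' processing notes are BWA and Bowtie, with no version. Build and counting tool are not given in the sources used here. A gene missing from a table counted as 0. The authors' ratio and FDR columns and 6 filtered lists, with 20 per-library columns, were not used.

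Expected counts were rounded to whole numbers. Identifiers carry the strain name CEN.PK113-7D, and 5515 of 6032 matched a gene table of assembly R64, used for names and gene order only. The fit was edgeR 4.0.16 (R 4.3.3), quasi-likelihood, TMM scaling, filterByExpr by strain, 5 libraries together, Benjamini-Hochberg adjusted p under 0.05. It was tried on simulated counts with sampling noise only, which cannot show false calls from 1 unusual deletion library. The filter kept 2909 genes and left 3123 untested. With 1 deletion library, a gene could pass by being high in a single strain. Named genes that passed only through M475R included PDR15, MRP1, LAF1, FMP10, MRPL24, CWP1 and YGR109W-B. THI20 passed only through the deletion. For such genes the adjusted p-value and the place in a count of calls are not independent support for the difference. The common dispersion was 0.00101 with 2 residual and infinite prior degrees of freedom, so p-values carry little beyond counting error, and the lone deletion library is taken to vary as the other libraries do. The labels do not say that replicates were separate cultures, so spread between them may be technical. Ratios divide pooled, TMM-scaled counts and carry exact 95% intervals from the conditional binomial distribution. PCR copies are not independent molecules.

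Named genes were the 15 largest called changes each way (at least 10 counts in the deletion or M475R replicate 2, both M475R libraries on the same side), up to 6 called members of each of 54 lists, other members of short lists, and ASK10, RGC1 and FPS1. The genes and lists were chosen with earlier results of these data known. M475R, WT and deletion values share libraries across comparisons. Tried were 13 alternatives in scaling, filter, test, spread and libraries, among them DESeq2 1.42.0 and limma 3.58.1.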

Additional observations from a re-analysis of the deposited data

How the results depend on the processing

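The counts of genes higher and lower, 119 and 180, stayed within 1.5 times under other scalings and with the 3 libraries alone, and without a count filter or with one of 10 counts over the shallow libraries. They fell to 18 and 51 with DESeq2, 12 and 38 with the biological coefficient of variation fixed at 20%, and 51 and 105 with a replicate block. Limma on log2(FPKM + 10) called 0 and 0 (196 higher and 102 lower at an unadjusted p under 0.05, smallest adjusted p 0.1). Leaving out 1 library gave 41 to 127 genes higher and 64 to 189 lower, the low values without M475R replicate 1. All 18 and 51 genes of DESeq2 were among the main calls, as were 44 and 96 under the block. The labels give the replicate numbers no meaning, the deletion shares only number 2, and the deviations of WT and M475R correlated at -0.0206 over 2909 genes, so the numbers were not taken as pairs. RGC1, never called, changed sign (from -0.07) to 0.38 with the replicate block, 0.22 without M475R replicate 1 and 0.0844 with limma, and its values without 1 library ran from -0.065 to 0.22. Of 147 named genes, 144 kept their side of the threshold under relative log expression scaling, 139 under total counts, 81 under the replicate block, 44 with the coefficient fixed at 20%, 0 with limma, 55 of 100 with DESeq2 and 59 of 145 without M475R replicate 1. The causes were not tested. The 71228 counts of M475R replicate 2 and 117680 of the deletion limit what can be detected in low genes.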

Other observations

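Calls in further gene lists are given here. Not every called gene outside the lists is named, NUP60 (lower) and CTS1 (higher) being examples. In pyrimidine synthesis, apart from URA3, 1 of the 9 tested genes was called, URA1, the dihydroorotate dehydrogenase gene, which had 580 CPM in the deletion, 294 and 286 CPM in M475R and 336 CPM in WT (ratio 0.507, 0.392 to 0.668, adjusted p = 0.000108 by edgeR's quasi-likelihood test, 0.108 without M475R replicate 1). URA2, the first enzyme of that pathway, had 1570, 1821 and 1746 CPM and did not pass the test (adjusted p = 0.401). In the pentose phosphate pathway SOL3, a phosphogluconolactonase gene, had a ratio of 0.536 (0.384 to 0.772, adjusted p = 0.0124, 0.35 without M475R replicate 1). ALD6, the cytosolic acetaldehyde dehydrogenase gene, had 1798, 2326 and 2213 CPM (ratio 1.29, 1.12 to 1.5, adjusted p = 0.0389), and AHP1, a peroxiredoxin gene, had 1474, 1938 and 2002 CPM (ratio 1.31, 1.12 to 1.55, adjusted p = 0.0331). Both were lost without M475R replicate 1 (adjusted p = 0.446 and 0.214) or replicate 2 (0.0694 and 0.0712). Of 11 phosphate uptake and storage genes edgeR and DESeq2 called 0, with 1 at an unadjusted p under 0.05.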
